A study of Mus musculus with 17 samples.

Results

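Epididymal adipose tissue of lean mice was compared between 2 genotypes that both lack mast cells, KitW/Wv and Cpa3Cre/+. The members are the 6 arrays whose titles name these genotypes on the low-fat diet (LFD), 3 of each, out of 17 arrays in the series, and all 17166 measured genes entered the comparison. The question is which differences go with the Kit mutation when mast cells are missing on both sides. All mice were of the WBB6F1 (WB X C57Bl/6) background. KitW/Wv mice carry 2 mutant alleles of Kit, and Cpa3Cre/+ mice carry 1 copy of a Cre knock-in at the carboxypeptidase gene Cpa3. An effect of the Kit mutation and an effect of the knock-in cannot be told apart in this comparison. The LFD lasted 12 weeks and is described in the protocol as chow with 6% fat, and tissue was taken after a 5 h morning fast. Cpa3+/+ mice with intact Kit (3 arrays on LFD) are given beside them as the wild type. The same 2 genotypes fed an HFD, in which fat gives 60% of the energy (3 arrays each), form a second comparison. It shares no array with the first, but the variance of each gene was estimated jointly for both. Age is not given in the labels, nor is it said that the arrays of a group came from different mice, so the spread behind each p-value may be partly technical.

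Kit is the receptor tyrosine kinase for stem cell factor, and mast cells need it throughout life. It also acts in blood stem and progenitor cells, the red cell lineage, pigment cells, germ cells and the pacemaker cells of the gut, so KitW/Wv mice have defects besides the loss of mast cells, anaemia among them. In Cpa3Cre/+ mice the Cre protein is made from a mast cell gene and depletes mast cells and part of the basophils, while Kit itself is intact. Adipose tissue holds adipocytes together with macrophages, lymphocytes, vessels and stromal cells, and all of these contribute RNA to a bulk sample, in which fewer cells of a type and less RNA per cell cannot be told apart.

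The arrays were of like brightness, with median deposited intensities of 99.3 to 104.2 and 47.4% to 50.6% of probes detected. Pairs of arrays correlated as well between genotypes (r 0.938 to 0.982, 9 pairs) as within them (0.939 to 0.981, 6 pairs). Cpa3Cre/+ array 2 stood apart along the leading principal component of the 6 arrays (50.3% of their variance). Its smooth muscle markers lay 2.01 above their mean over all 17 arrays on the log2 scale. They were at -0.58 and -0.30 on Cpa3Cre/+ arrays 1 and 3, and at 0.41, -0.33 and 1.00 on the KitW/Wv arrays. KitW/Wv array 3 carried the most B cell marker signal, 1.16 above the mean, against -0.23 and 0.22 on KitW/Wv arrays 1 and 2. The adipocyte hormone gene Adipoq was at 13.71 to 13.96 on all 6 arrays. Among the wild-type LFD arrays, array 3 stood apart by its testis and epididymis markers, at 3.05 above their mean over all 17 arrays. These markers were at -0.28 and -0.27 on wild-type arrays 1 and 2, and between -0.27 and -0.14 on the 6 mutant arrays.

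The mast cell proteases Cpa3, Cma2 and Mcpt4 were at the floor of the arrays in both genotypes. Cpa3 measured 4.22, 4.20 and 4.17 log2 intensity on KitW/Wv arrays 1, 2 and 3, and 4.21, 4.09 and 4.30 on the Cpa3Cre/+ arrays, with detection on none of the 6. The wild-type arrays measured 8.21, 7.66 and 7.32. The chymase gene Cma2 gave 4.09, 4.10 and 4.10 in KitW/Wv and 4.08, 4.16 and 4.18 in Cpa3Cre/+, against 9.36, 8.70 and 8.27 in the wild type. Not all proteases of the list were below detection. The chymase Cma1 measured 4.39, 4.89 and 4.39 in KitW/Wv, with detection on 1 array, and 5.10, 4.55 and 4.55 in Cpa3Cre/+, with detection on all 3, and the tryptase Tpsab1 gave 5.60, 4.45 and 4.25 (detected on 1) against 4.92, 4.81 and 5.39 (detected on 3). The values of both overlapped between the genotypes, with differences of -0.18 (-0.67 to 0.31) and -0.27 (-1.27 to 0.72), and both were higher in the wild type, at means of 7.23 and 7.35. Of 10 measured mast cell markers, 0 had an unadjusted p below 0.05 between the 2 genotypes (limma), against 4.5% of all genes, and their median log2 difference, KitW/Wv minus Cpa3Cre/+, was -0.11, where the median of all genes was -0.01. The protease Mcpt4 differed by -0.11 (95% interval -0.60 to 0.39), and the tryptase Tpsb2 by -0.17 (-0.63 to 0.29). The widest difference in the list was that of Hdc, the histamine-forming enzyme, at 0.78 (-0.46 to 2.01). Hdc is also made by other myeloid cells, and its 3 KitW/Wv values of 7.32 to 8.31 overlapped the Cpa3Cre/+ values of 6.76 to 7.34.

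**Figure D1:**
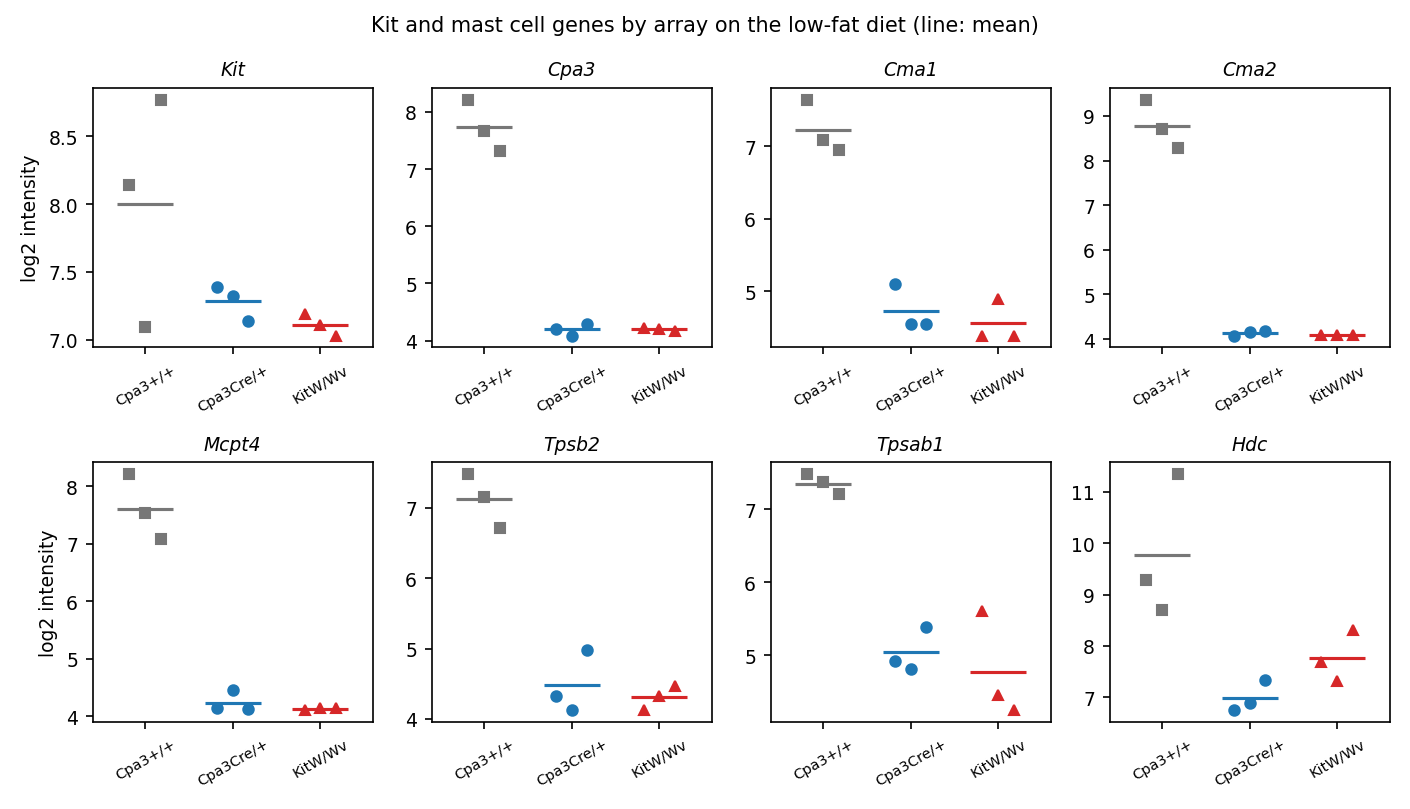
Log2 intensity of Kit and 7 mast cell genes on each LFD array (points, replicates 1 to 3 from left to right) with the group mean (line) for the 3 genotypes. Cpa3, Cma2 and Mcpt4 sit between 4.08 and 4.45 on every KitW/Wv and Cpa3Cre/+ array and above 7 on every wild-type array.

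Kit itself measured 7.19, 7.11 and 7.03 in KitW/Wv and 7.39, 7.32 and 7.14 in Cpa3Cre/+. The values overlapped, and the difference was -0.17 (SE 0.32, 95% interval -0.85 to 0.50), where the other of its 2 probes gave 0.13. Whether the probe lies in a part of Kit touched by either mutant allele is not given, so this level is no check of the genotype. Of 20 measured genes of Kit signalling, 2 had an unadjusted p below 0.05, both higher (2.59% of all genes). They were the phosphatase gene Ptpn6 at 0.85 (0.05 to 1.65) and the exchange factor gene Sos1 at 0.56 (0.10 to 1.01), whose other probe gave -0.25. No probe of Kitl, the gene of the ligand, passed the detection filter. DNA around each altered locus can differ between the genotypes, so the nearest measured genes were listed in annotation order. Among the 100 around Kit on chromosome 5 the median was -0.06, with 0 higher and 3 lower at an unadjusted p below 0.05 (2.59% and 1.91% of all genes). The 3 were the glucuronosyltransferase gene Ugt2b1 at -1.63, the clock gene Clock at -0.57 and the RNA-binding protein gene Rbm47 at -0.47. The other Clock probe gave 0.10, and the 4 Rbm47 probes ran from -0.56 to 0.18. Among the 89 around Cpa3 on chromosome 3 the median was -0.02, and 1 gene had such a p, the Notch target gene Hey1 at 0.72.

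No gene passed the threshold between the 2 genotypes on LFD. With limma and Benjamini-Hochberg adjustment at 0.05, 0 of 17166 genes were called in either direction (0%), and the lowest adjusted p was 0.25. At an unadjusted p below 0.05 there were 773 genes (4.5%), 445 of them higher in KitW/Wv (2.59%) and 328 lower (1.91%). All 3 KitW/Wv arrays lay above all 3 Cpa3Cre/+ arrays for 772 genes (4.5%) and below them for 695 (4.05%). The 5th and 95th percentiles of the log2 differences were -0.46 and 0.44, with 97 genes above 1 and 68 below -1. The median SE was 0.23 and the median half-width of the 95% interval 0.48. For 82.6% of genes the whole interval lay within -1 to 1 on the log2 scale, and for the others it reached further. Since no gene passed, the genes named below are those with the smallest p, given as measured values.

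MHC class II genes, whose products present peptides to helper T cells, had mostly separate arrays between the genotypes. All 10 measured members had positive differences, as did 47.6% of all genes, with a median of 0.88. In 9 of them all KitW/Wv arrays lay above all Cpa3Cre/+ arrays, as in 4.5% of all genes. An unadjusted p below 0.05 was found for 8, all higher, against 2.59% of all genes. H2-Eb1, a beta chain, measured 12.30, 12.21 and 12.53 in KitW/Wv and 11.33, 11.46 and 11.53 in Cpa3Cre/+, a difference of 0.91 (SE 0.16, 95% interval 0.56 to 1.26, limma adjusted p = 0.318). The lowest KitW/Wv array was thus well clear of the highest Cpa3Cre/+ array, and the wild type (11.56, 11.94 and 11.90) lay between them. For H2-Ab1, another beta chain, KitW/Wv gave 12.67, 12.48 and 12.87 against 11.78, 12.00 and 11.78, a difference of 0.82 (0.41 to 1.23, limma adjusted p = 0.538). The invariant chain gene Cd74 differed by 0.69 (0.31 to 1.07), and Ciita, the master activator of the class II genes, by 0.99 (0.17 to 1.81). H2-DMa, H2-DMb1 and H2-DMb2, subunits of the peptide loading factor, differed by 1.13, 0.85 and 1.41. Whether the probes of H2-DMb1 and H2-DMb2, closely related neighbours, tell the pair apart was not tested. The H2-Oa value of 1.55 was the largest of the list and that of H2-Eb2, near the floor on most arrays, the smallest at 0.18. H2-Aa was at 0.63 (-0.01 to 1.27). The count of 8 went to 5 without KitW/Wv array 3 or without Cpa3Cre/+ array 3 and to between 7 and 8 without each other array, while the median stayed between 0.74 and 0.96.

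The promoters of 3 of these genes are shown because class II genes are known to share upstream elements, the X and Y boxes, through which Ciita acts. Each is a window of 300 bases around the start of the RefSeq gene (GRCm38.p6), mostly upstream of it, on the plus strand of chromosome 17, at chr17:34305617-34305916 for H2-Eb1, chr17:34152941-34153240 for H2-DMb1 and chr17:34144999-34145298 for H2-DMb2. Capitals mark matches, on either strand, to AACNGATG for the core of the X box and to CTGATTGG for the Y box, and the X box letters were shortened from a longer form after that form had been searched and its matches seen, which raised the number of genes that hold them.
H2-Eb1: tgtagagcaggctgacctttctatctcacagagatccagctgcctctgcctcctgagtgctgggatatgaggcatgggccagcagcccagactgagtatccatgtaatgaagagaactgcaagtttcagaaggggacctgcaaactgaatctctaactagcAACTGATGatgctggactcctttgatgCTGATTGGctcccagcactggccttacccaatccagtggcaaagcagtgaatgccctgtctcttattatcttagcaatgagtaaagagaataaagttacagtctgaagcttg
H2-DMb1: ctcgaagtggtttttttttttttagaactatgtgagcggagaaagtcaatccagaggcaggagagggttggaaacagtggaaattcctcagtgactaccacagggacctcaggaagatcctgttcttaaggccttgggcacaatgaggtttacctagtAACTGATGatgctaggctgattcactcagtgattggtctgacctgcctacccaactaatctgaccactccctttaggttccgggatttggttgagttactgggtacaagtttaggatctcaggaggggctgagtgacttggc
H2-DMb2: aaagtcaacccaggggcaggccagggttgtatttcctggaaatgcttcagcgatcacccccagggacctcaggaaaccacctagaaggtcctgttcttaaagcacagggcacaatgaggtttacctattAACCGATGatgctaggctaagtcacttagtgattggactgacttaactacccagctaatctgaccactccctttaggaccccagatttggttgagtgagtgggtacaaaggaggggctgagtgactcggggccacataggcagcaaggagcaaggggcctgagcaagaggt
H2-Eb1 holds both motifs, and H2-DMb1 and H2-DMb2 hold the X box letters and no exact match to CTGATTGG. Both hold the letters gtgattgg downstream of the X box letters, which differ from CTGATTGG in the first letter and were not counted. Of the 10 class II genes, 7 had an entry in the promoter table, of which 4 held AACNGATG (H2-DMb1, H2-DMb2, H2-Eb1 and H2-Eb2) and 4 held CTGATTGG (H2-Aa, H2-Eb1, H2-Eb2 and H2-Oa). Over all 32851 promoters of that table the shares were 2.32% and 4.1%. H2-Eb2 holds both motifs and had the smallest difference of the list.

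**Figure D2:**
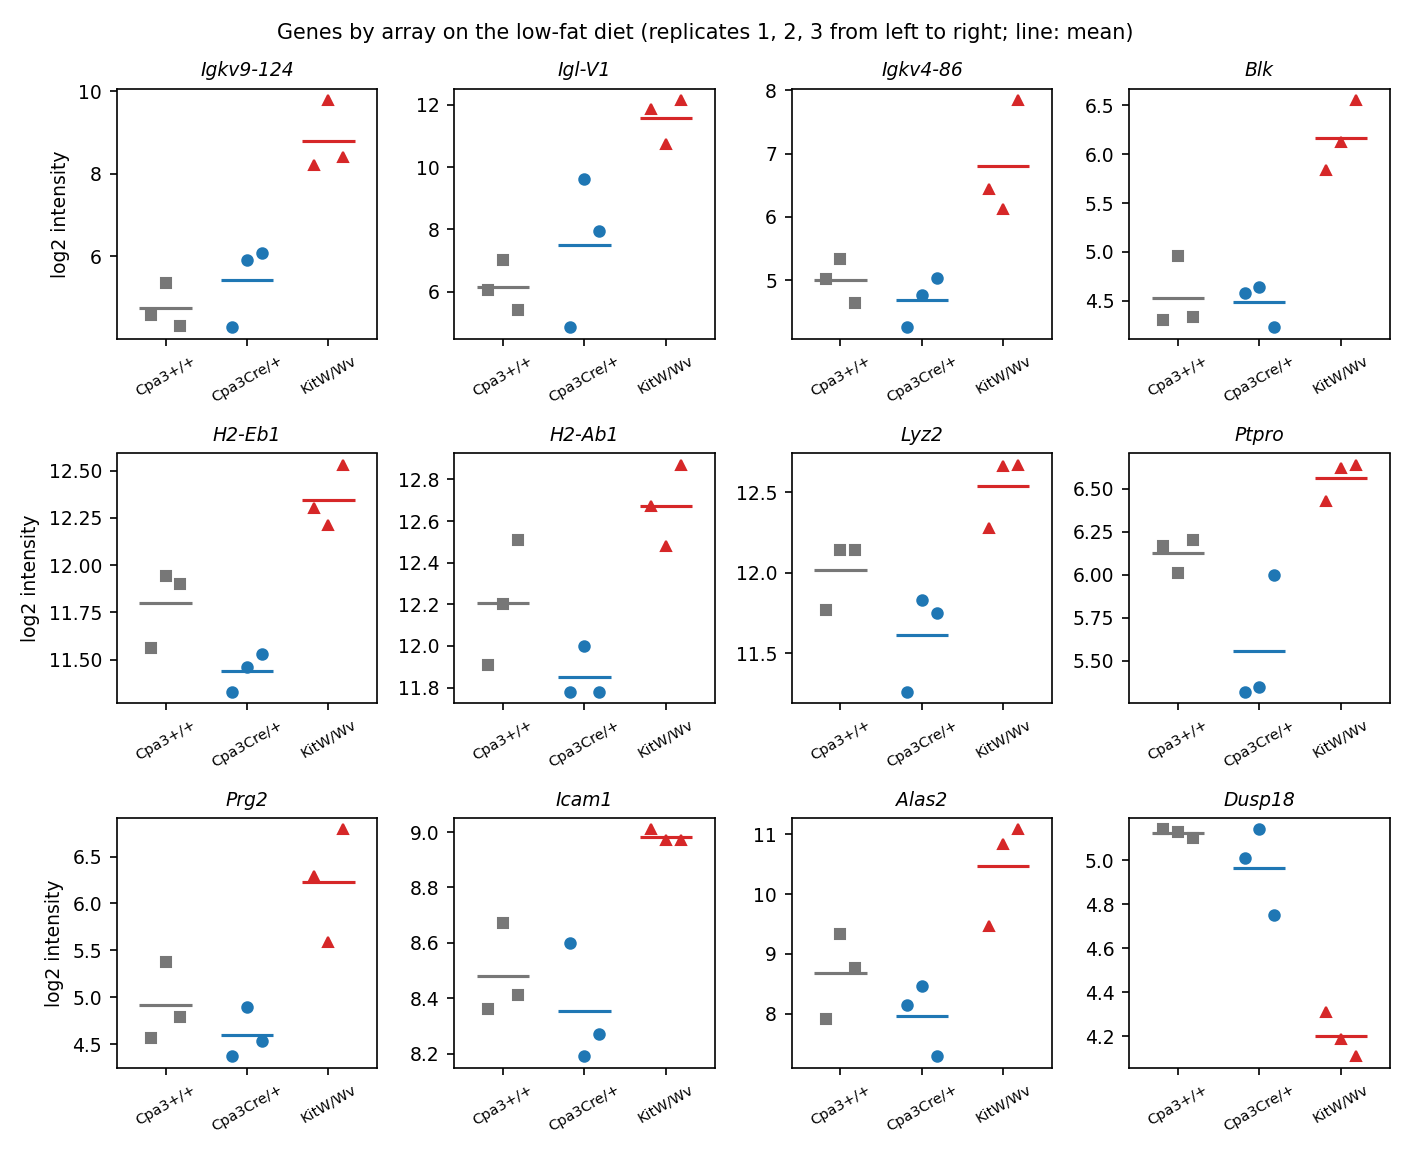
Log2 intensity of 12 genes on each LFD array (points, replicates 1 to 3 from left to right) with the group mean (line) for wild-type, Cpa3Cre/+ and KitW/Wv tissue. For every gene drawn the KitW/Wv and Cpa3Cre/+ points do not overlap, and each axis has its own range.

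General macrophage genes leaned the same way by smaller amounts. Of 22 measured members, 21 had positive differences (47.6% of all genes), with a median of 0.36 and a range of -0.03 to 0.92. An unadjusted p below 0.05 was found for 11, all higher (2.59% of all genes). Lyz2, the lysozyme of macrophages and granulocytes, measured 12.28, 12.66 and 12.67 in KitW/Wv and 11.26, 11.83 and 11.75 in Cpa3Cre/+, a difference of 0.92 (0.42 to 1.43, limma adjusted p = 0.696). The complement C1q chains C1qa, C1qb and C1qc, made by resident macrophages, differed by 0.80, 0.85 and 0.63. The surface marker Adgre1 did not share this, at 0.13 (-0.30 to 0.56), and Cd68 was at 0.71 (-0.06 to 1.48) with overlapping arrays. The count of 11 went to 5 without Cpa3Cre/+ array 2, to 6 without Cpa3Cre/+ array 1, to 7 without KitW/Wv array 1 or 3, and to 4 without KitW/Wv array 3 and Cpa3Cre/+ array 2 together, with a median of 0.39 in the last case. All 18 resident macrophage genes had positive differences (47.6% of all genes), from 0.03 to 0.97 with a median of 0.27. An unadjusted p below 0.05 was found for 3 (2.59% of all genes), led by the lectin gene Mgl2 at 0.97 (0.42 to 1.52). Among 17 genes of lipid-associated macrophages there were 0, with Trem2 at 0.56 (-0.07 to 1.19).

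Several of the genes with the smallest p are expressed in blood cells. Ptpro, a receptor phosphatase, measured 6.43, 6.62 and 6.64 in KitW/Wv and 5.32, 5.35 and 6.00 in Cpa3Cre/+, a difference of 1.01 (0.60 to 1.41), though the other of its 2 probes gave 0. Was, the actin regulator of blood cells, gave 8.18, 8.10 and 8.23 against 7.12, 7.32 and 7.36, a difference of 0.90 (0.48 to 1.32). Icam1, the adhesion molecule that binds leukocyte integrins, gave 9.01, 8.97 and 8.97 against 8.60, 8.19 and 8.27, a difference of 0.63 (0.33 to 0.92). In none of these did the genotypes overlap. Prg2, the major basic protein of eosinophils, was at 6.29, 5.59 and 6.79 against 4.37, 4.90 and 4.53, a difference of 1.63 (0.94 to 2.32). Only 3 genes of the eosinophil list were measured, and of the others Alox15 was at -0.13 (-0.86 to 0.59). Pira1, Rab3il1, Lyl1 and Nfkbie completed the blood and signalling genes among the first 15, at 0.83, 1.06, 0.96 and 1.15. The other probe of Nfkbie gave 0.16 and that of Rab3il1 0.39. Without background correction the differences of Ptpro, Prg2 and Pira1 were 0.45, 0.59 and 0.29.

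Immunoglobulin genes, which are made by B cells and plasma cells, had the largest differences. The gene with the smallest p of all was the kappa variable gene Igkv9-124, which measured 8.21, 9.78 and 8.40 in KitW/Wv against 4.28, 5.90 and 6.09 in Cpa3Cre/+ and 4.58, 5.35 and 4.30 in the wild type. The difference was 3.37 (SE 0.53, 95% interval 2.24 to 4.50), which is 10.3-fold, with a limma adjusted p of 0.25. The lambda gene Igl-V1 had 11.87, 10.73 and 12.14 in KitW/Wv, and 4.86, 9.63 and 7.96 in Cpa3Cre/+, a difference of 4.10 with an interval of 2.07 to 6.12. Its Cpa3Cre/+ arrays spread more widely than the gap between the genotypes. Igkv4-86 was at 6.44, 6.13 and 7.84 against 4.26, 4.77 and 5.03, a difference of 2.11 (1.31 to 2.91). Igk-V33 was detected on all KitW/Wv arrays and on no Cpa3Cre/+ array and was at least 5.24-fold higher in KitW/Wv, while the wild-type arrays were at 6.40, 6.32 and 4.38.

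These genes led to a list of all 26 measured genes with an immunoglobulin symbol, drawn up after their values were seen. Of the 26, 23 had positive differences (47.6% of all genes), and the median was 1.05. Higher with an unadjusted p below 0.05 were 13 (2.59% of all genes), and 7 had all KitW/Wv arrays above (4.5%). A probe detected on KitW/Wv arrays alone could pass the filter. On LFD, Ighv8-9 was detected on 2 KitW/Wv arrays and on 0 Cpa3Cre/+ and 0 wild-type arrays. The counts and medians of this list, here and on HFD, are thus partly set by the filter. The kappa constant gene Igk-C, which sums over most B cells, gave 12.75, 13.58 and 13.88 in KitW/Wv and 7.11, 12.82 and 11.53 in Cpa3Cre/+. Its values overlapped, and the difference of 2.92 went to 1.23 without Cpa3Cre/+ array 1. Without that array the count of 13 went to 7. The heavy mu chain gene Igh-6 was at 0.70 (-0.04 to 1.45). Some members were high on a single array, such as Igkv8-16 (10.25 on KitW/Wv array 2 against 5.74 and 5.69) and Igkv3-2 (9.91 on KitW/Wv array 3 against 5.50 and 4.20). Variable genes share much sequence, and how far their probes tell them apart was not tested.

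Other B cell genes followed the immunoglobulins in part. Of 15 measured markers, 6 were higher and 1 was lower at an unadjusted p below 0.05 (2.59% and 1.91% of all genes). The median was 0.81. Here too a probe detected on KitW/Wv arrays alone could pass the filter, so the count and median may be partly set by it. Vpreb3 was at 4.23, 4.54 and 5.65 in KitW/Wv, and at 4.12, 4.31 and 4.21 in Cpa3Cre/+. The B cell kinase gene Blk measured 5.84, 6.12 and 6.55 in KitW/Wv against 4.58, 4.64 and 4.23, a difference of 1.69 (0.86 to 2.52, limma adjusted p = 0.538), which was 0.59 without background correction. Cd79b, part of the antigen receptor, gave 6.77, 7.78 and 8.96 against 5.18, 6.09 and 5.72, a difference of 2.17 (0.90 to 3.44). Fcmr, the IgM receptor, gave 5.95, 7.08 and 9.19 against 4.73, 5.21 and 4.51, a difference of 2.59 (0.94 to 4.23). In both, KitW/Wv array 3, the array with the most B cell signal, was the highest. Without that array, 3 of the 6 higher counts were left, and 4 without KitW/Wv array 2, and the list median over single left-out arrays ran from 0.47 to 1.17. The B cell marker Ms4a1 was at the floor in both genotypes, at 4.28 to 4.38. In the T and NK cell list, 4 of 18 members had an unadjusted p below 0.05, all higher (2.59% of all genes). They were led by the T cell receptor chains Cd3e at 1.52, Cd3d at 1.41 and Cd3g at 1.37. The count was 1 without Cpa3Cre/+ array 3 and 2 without KitW/Wv array 2. None of the B cell, T and NK cell or immunoglobulin genes passed the adjusted threshold. B cells also express class II genes. The mean B cell marker level, relative to all 17 arrays, was -0.23, 0.22 and 1.16 on the KitW/Wv arrays and -0.72, -0.30 and -0.56 on the Cpa3Cre/+ arrays, and its part in the class II difference was not tested.

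**Figure D3:**
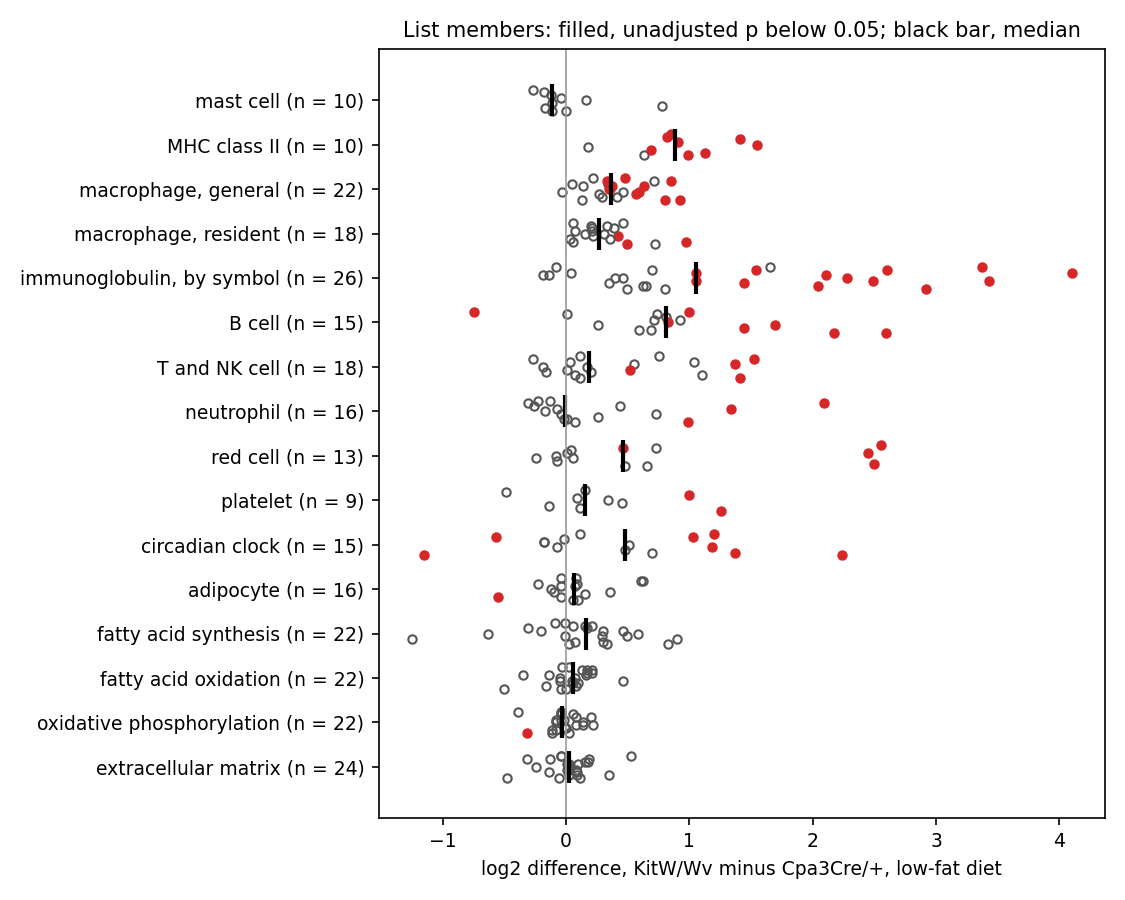
Log2 difference, KitW/Wv minus Cpa3Cre/+ on LFD, of each measured member of 16 gene lists (points) with the list median (black bar). Filled points have an unadjusted p below 0.05. None passed the adjusted threshold. The medians of MHC class II, immunoglobulin and B cell genes are 0.88, 1.05 and 0.81, and those of the adipocyte and metabolic lists lie between -0.03 and 0.16.

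Red cell, platelet and neutrophil genes had a few members each with a wide gap. Alas2, the haem-forming enzyme of red cell precursors, measured 9.47, 10.83 and 11.08 in KitW/Wv and 8.14, 8.47 and 7.29 in Cpa3Cre/+, a difference of 2.50 (0.94 to 4.05, limma adjusted p = 0.9). The anion exchanger gene Slc4a1 and the beta globin gene Hbb-b2 differed by 2.55 and 2.45, again with no overlap, while Hba-a1 was at 0.48 and the brightest Hbb-b1 probe at 0.73, both near the top of the intensity range. The 11 probes of Hbb-b1 ran from 0.16 to 2.56. Beta globin genes are near-identical copies, and their probes may not separate them. Of 13 red cell genes, 4 were higher at an unadjusted p below 0.05 (2.59% of all genes), and 2 without KitW/Wv array 3. The platelet genes Gp9 and Ppbp were at 1.00 (0.27 to 1.73) and 1.26 (0.07 to 2.45). They were the only 2 of 9 measured platelet genes with an unadjusted p below 0.05 (2.59% of all genes were higher at that p). Of the 9, 7 had positive differences (47.6% of all genes), the lowest value was -0.49 and the median 0.15. S100a9, a protein of neutrophils, gave 7.51, 7.20 and 7.35 against 4.97, 4.59 and 6.24, a difference of 2.09 (0.72 to 3.45), but both genotypes lay below the wild type at 8.10, 9.70 and 8.92. Retnlg and S100a8 kept the same order, with differences of 1.34 and 0.99. S100a9, Retnlg and S100a8 were the 3 of 16 neutrophil genes with an unadjusted p below 0.05, all higher (2.59% of all genes). The other 13 had no such p. Of the 16, 8 had positive differences (47.6% of all genes), and the median of the list was -0.01.

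The genes with the smallest p among those lower in KitW/Wv formed no group from the lists and were mostly dim. Dusp18, a phosphatase gene, measured 4.31, 4.19 and 4.11 in KitW/Wv, where it was not detected, and 5.01, 5.14 and 4.75 in Cpa3Cre/+, where it was detected on all arrays, so it was at least 1.53-fold lower. The wild type, at 5.14, 5.13 and 5.10, was level with Cpa3Cre/+. Isoc2b gave 5.37, 5.53 and 5.27 against 6.23, 6.26 and 6.20, a difference of -0.84 (-1.23 to -0.44), and here the wild type, at 5.34, 5.56 and 5.09, was level with KitW/Wv. Clmp, a cell adhesion molecule, gave 6.46, 6.75 and 7.18 against 7.63, 7.60 and 7.74, a difference of -0.86, again with the wild type on the KitW/Wv side. Snph, Olfr723, Efcab9, Zfp286 and Vmn1r186 were likewise not detected on any KitW/Wv array and at least 1.68-, 1.42-, 1.55-, 1.54- and 1.38-fold lower. Zfh4, Slc30a8, Aff4 and Chmp2b were at -0.94, -0.74, -0.68 and -0.58. Ppm1l, Cpeb4 and Pik3r4 were at -1.11, -0.70 and -0.56, but their other probes reached -0.05, 0.07 and 0.41. Outside the first 15, the largest negative value of a named gene was that of Hamp, the iron hormone hepcidin, at -3.03 (-6.19 to 0.12), with overlapping arrays of 7.75, 4.42 and 4.26 against 6.89, 9.63 and 9.03.

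Clock genes set KitW/Wv arrays 1 and 2 apart from the other 4 arrays. Dbp, an output factor of the clock, measured 12.29, 12.49 and 9.27 in KitW/Wv and 7.55, 9.41 and 10.39 in Cpa3Cre/+, a difference of 2.24 (0.33 to 4.14). Arntl, which acts together with Clock, gave 5.29, 5.10 and 7.32 against 7.29, 7.26 and 6.59, a difference of -1.15 (-2.19 to -0.10). KitW/Wv arrays 1 and 2 were thus high for Dbp and low for Arntl, while array 3 resembled the Cpa3Cre/+ arrays. Tef, Ciart and Per3 kept the pattern of Dbp, with differences of 1.03, 1.37 and 1.20, and the other Tef probe gave 0.33. Of 15 measured clock genes, 5 were higher and 2 lower at an unadjusted p below 0.05 (2.59% and 1.91% of all genes). On HFD the 3 KitW/Wv arrays did not overlap the Cpa3Cre/+ arrays for Dbp or Arntl, though neither gene was called. Dbp gave 11.29, 10.91 and 12.10 against 8.74, 8.91 and 10.46, a difference of 2.07. Arntl gave 5.34, 5.95 and 5.05 against 7.33, 7.36 and 6.45, a difference of -1.60. On HFD, 12 of the 15 clock genes kept their LFD sign, as did 9007 of all 17166 genes. The labels give a morning fast but no time of day per sample, and its part in these values was not tested.

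**Figure D4:**
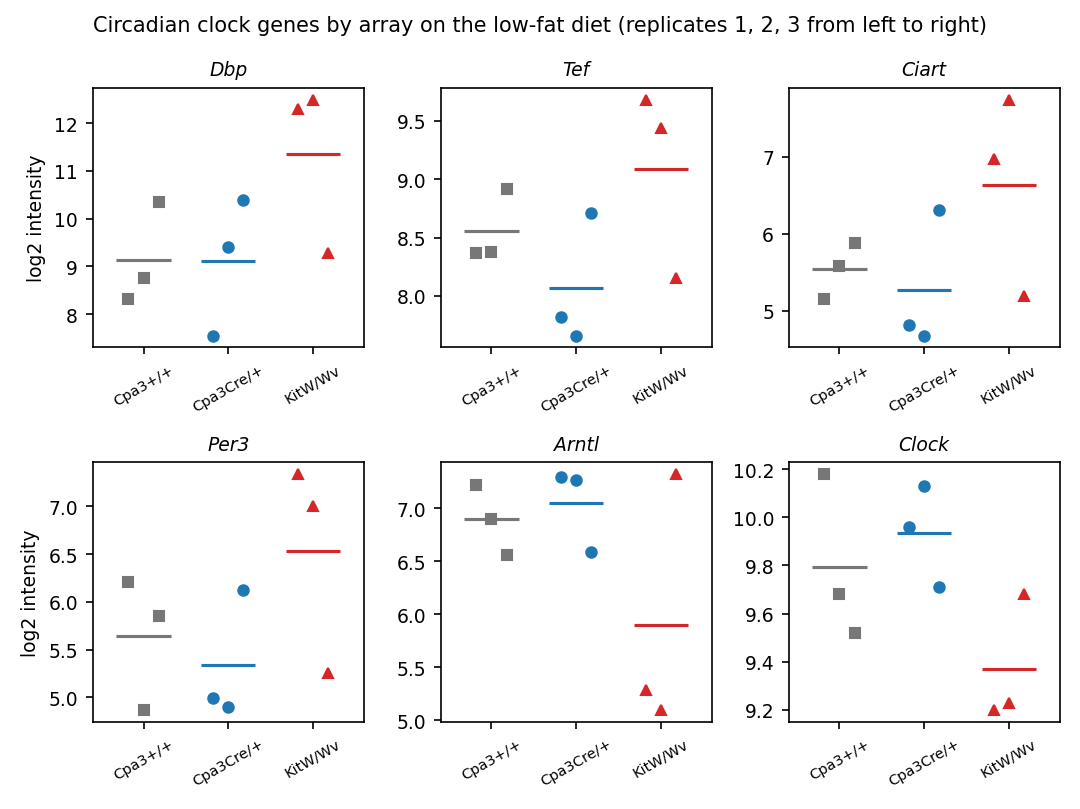
Log2 intensity of 6 clock genes on each LFD array (points, replicates 1 to 3 from left to right) with the group mean (line). KitW/Wv arrays 1 and 2 lie above every Cpa3Cre/+ array for Dbp, Tef, Ciart and Per3 and below every one for Arntl, and KitW/Wv array 3 does not.

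Ciart, a clock repressor, is shown because its promoter carries the letters CACGTG, the E box bound by Arntl and Clock, more than once. It lies on the minus strand at chr3:95882179-95882478 (RefSeq, GRCm38.p6), and capitals mark the 3 matches.
Ciart: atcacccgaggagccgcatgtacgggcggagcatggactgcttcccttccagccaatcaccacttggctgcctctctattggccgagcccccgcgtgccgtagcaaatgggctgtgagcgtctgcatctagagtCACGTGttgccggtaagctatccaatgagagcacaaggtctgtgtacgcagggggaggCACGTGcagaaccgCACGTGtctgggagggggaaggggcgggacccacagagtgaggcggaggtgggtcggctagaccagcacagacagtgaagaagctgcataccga
Of 12 clock genes with an entry in the promoter table, 3 held CACGTG (Ciart, Per1 and Tef), and 7.15% of all promoters held it. Per1 holds it too, and differed by -0.07.

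Genes of the adipocyte itself had differences centred near 0. Of 16 adipocyte markers, 0 were higher and 1 was lower at an unadjusted p below 0.05, the activin receptor gene Acvr1c at -0.55 (-1.11 to 0.00), and the median was 0.07. Over all genes 2.59% were higher and 1.91% lower at that p. Adipoq differed by 0.06 (-0.21 to 0.32), at a level near the top of the intensity range, where a difference may be understated. The leptin gene Lep measured 13.14, 12.68 and 12.81 in KitW/Wv and 13.23, 11.48 and 12.08 in Cpa3Cre/+, a difference of 0.61 (-0.21 to 1.44), an interval that holds both 0 and 1. Pparg, the adipocyte master regulator, was at 0.62 (-0.11 to 1.36), and the resistin gene Retn at -0.04 (-0.61 to 0.54). Fatty acid synthesis (22 genes, Fasn at 0.83, -0.29 to 1.96), fatty acid oxidation (22 genes) and extracellular matrix (24 genes) had 0 members with an unadjusted p below 0.05, and oxidative phosphorylation (22 genes) had 1, Ndufa1 at -0.32. In the insulin and glucose list of 17 genes, 2 were higher, Irs1 at 0.31 (0.02 to 0.61) and Insr at 0.57 (0.02 to 1.11, with 0.10 from its other probe), and 2 were lower, among them the transcription factor gene Foxo1 at -0.54 (-0.95 to -0.13). The insulin-responsive glucose transporter gene Slc2a4 was at 0.37 (-0.03 to 0.77).

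Set beside the wild type, few genes outside the mast cell list passed the threshold in either genotype. In KitW/Wv, 1 gene was higher (0.00583%) and 7 were lower (0.0408%) than in Cpa3+/+ on LFD. In Cpa3Cre/+, 0 were higher (0%) and 6 were lower (0.035%). The higher gene was Igkv9-124 at 4.05 (limma adjusted p = 0.00446), against 0.68 (0.999) for Cpa3Cre/+ minus wild type. Cpa3, Cma1, Cma2, Mcpt4 and Tpsb2 were lower in both, Cma2 by -4.68 in KitW/Wv and -4.64 in Cpa3Cre/+. S100a8 was lower in Cpa3Cre/+ at -2.36 (limma adjusted p = 0.0051) and not called in KitW/Wv at -1.36 (0.455), and the difference between them is the 0.99 given above. Dusp18 was lower in KitW/Wv at -0.92 (limma adjusted p = 0.0351) and at -0.16 in Cpa3Cre/+. These comparisons share the arrays of the main one. They also include the wild-type array with high testis and epididymis markers, and how far the calls depend on that array was not tested. For H2-Eb1, KitW/Wv minus wild type was 0.55 and Cpa3Cre/+ minus wild type -0.36, so the wild-type mean lay between the 2 mutants.

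On HFD the same comparison called 513 genes higher in KitW/Wv (2.99%) and 835 lower (4.86%). Across all 17166 genes the log2 differences on the 2 diets had a Pearson r of 0.22 and a Spearman rho of 0.1. Both are descriptions across genes, which are not independent. The sign was the same on both diets for 9007 of the 17166 genes. Of the 15 named genes with the smallest p among those higher on LFD, 7 were called higher on HFD and 5 were called lower. Those higher on both were Igkv9-124 (4.00 on HFD, limma adjusted p = 0.000329), Igl-V1 (6.14), Igkv4-86 (1.80), Igk-V33 (2.46), Blk (2.03), Prg2 (1.20) and Icam1 (0.64). Those of opposite direction were H2-Eb1, H2-Ab1, Ptpro, Pira1 and Was. Of the 15 named lower genes, Cpeb4 was called lower on HFD (-0.83) and Pik3r4 higher (0.64). All these calls but that of Cpeb4 held without KitW/Wv HFD array 1. The B cell markers of that array were the highest of these arrays, at 2.00 above the mean. Both diets were fitted in the same model, so a gene has the same SE on LFD and HFD (0.16 for H2-Eb1). Ranking by the LFD p favours genes with a small SE, which makes an HFD call in either direction more likely. The HFD calls among the named genes are thus not independent of their choice.

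Immunoglobulin genes and class II genes parted between the diets. On HFD, 11 of the 26 immunoglobulin genes were called higher and 0 lower (2.99% and 4.86% of all genes), with a median of 1.73. Without KitW/Wv HFD array 1, 10 were called higher, against 352 of all 17166 genes. This list was drawn up after its values were seen, and its counts are partly set by the filter. Of the 10 class II genes, 0 were called higher and 4 lower (2.99% and 4.86% of all genes), with a median of -0.84. Without KitW/Wv HFD array 1, 7 were called lower, against 644 of all 17166 genes. Of the 22 general macrophage genes, 0 were called higher and 10 lower (10 lower without that array), with a median of -0.74. The test of the difference between diets called 436 genes (2.54%), 77 with a positive sign (0.449%) and 359 with a negative sign (2.09%). It called 6 of 10 class II genes and 10 of 22 macrophage genes, all negative, and 1 of 26 immunoglobulin genes, Igh-4, which was positive. For H2-Eb1 the difference was 0.91 on LFD and -0.64 on HFD, an interaction of -1.55 (limma adjusted p = 0.00213). For H2-DMb1 it was 0.85 and -2.35, an interaction of -3.20 (0.00133).

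**Figure D5:**
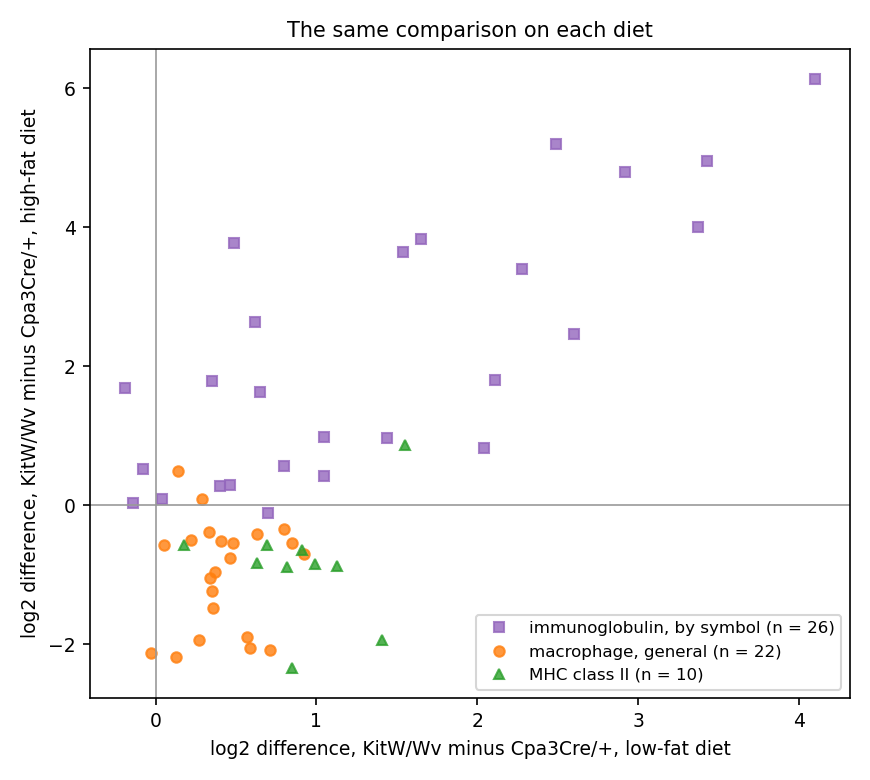
Log2 difference, KitW/Wv minus Cpa3Cre/+, on LFD (horizontal) and on HFD (vertical) for each measured gene of 3 lists. The class II points, apart from H2-Oa, lie to the right of 0 and below it, and the immunoglobulin points have a median of 1.05 on LFD and 1.73 on HFD. The immunoglobulin list was drawn up after its values were seen.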

How the data were processed

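The values come from 17 Illumina bead arrays with 46237 probes. Biotin-labelled total RNA was used per the labels, and GenomeStudio is named in the submitters' processing notes, without a version. The deposited intensity of each probe is linear and not normalized between arrays, and a deposited detection p-value stands beside it, per the file headers. The authors also deposited a normalized intensity by a method not given in the sources used here, used as an alternative only. Background was corrected and arrays were quantile normalized to log2 values from the deposited intensity and detection p-value with neqc (limma 3.58.1, R 4.3.3, offset 16). The filter asked for a detection p below 0.05 on 2 or more arrays and left 25594 probes with a symbol (named from GEO's platform annotation updated by Entrez ID for 28620 probes), and of several probes the one of highest mean was taken. A probe not detected on any array of a group has only a bound there, so an "at least" fold replaces its values there by the array's lowest detected value (log2 4.33 to 4.38) where that is higher. How the detection p-values were computed is not stated, and they do not strictly follow the order of the intensities. Zfp286, for example, was not detected at 4.47 and 4.57 on KitW/Wv LFD arrays 1 and 2. The background, filter and bounds rest on these p-values, so the bounds are approximate.

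A model with 1 mean for each of 6 groups was fitted to all 17 arrays (11 residual and 3.34 prior degrees of freedom), with Benjamini-Hochberg adjustment at 0.05. The members, comparisons and the 43 gene lists were chosen with earlier results of these data known. Named genes are, per direction, the 15 with the smallest p whose symbols are not clone numbers (2 passed over in each direction), Kit and the mast cell proteases, and 2 per list. Further list members were named after their values were seen. The test was tried on simulated data. The LFD results were recomputed under up to 18 other settings, and the HFD counts without 1 array (closing section). Sequences are from RefSeq, and figures were drawn with matplotlib 3.10.9 in Python 3.11.15. Array number limits the precision.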

Additional observations from a re-analysis of the deposited data

Results flagged for a closer look

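The difference between KitW/Wv and Cpa3Cre/+ was tested for a change with diet (HFD difference minus LFD difference, limma interaction, adjusted over all genes). Of the 162 genes named, 26 passed, against 436 of all 17166 genes (2.54%). Many of the 162 were chosen for their LFD difference, which is one term of the interaction, so the choice itself favours passing and the share is no evidence about them. In the class II list the values were -3.35 for H2-DMb2, -3.20 for H2-DMb1, -2.01 for H2-DMa, -1.71 for H2-Ab1, -1.55 for H2-Eb1 and -1.27 for Cd74. Among macrophage genes they were -3.72 for Trem2, -2.80 for Cd68, -2.63 for Mpeg1, -2.47 for Tyrobp, -2.32 for Adgre1, -1.63 for Lyz2, -1.51 for Slc11a1 and -1.40 for C1qb. Other genes with a positive LFD difference and a negative interaction were Il7r (-2.94), Ptpro (-2.71), Pira1 (-2.08), Was (-1.95), Aurka (-1.87), Rab3il1 (-1.78) and Mvd (-1.62). Interactions were positive for Igh-4 (3.30), Eci3 (3.22), Ppm1l (1.61), Pik3r4 (1.20) and Snph (1.05). The largest adjusted p among these was 0.0445.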

How the results depend on the processing

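The count of 0 called genes was the same under all 18 alternatives, and the lowest adjusted p ranged from 0.059 without Cpa3Cre/+ array 3 to 0.909 with the 6 LFD arrays of the comparison alone. Genes with an unadjusted p below 0.05 numbered 576 to 996, the most without the detection filter. With the replicate number as a block there were 0 called genes, 781 with an unadjusted p below 0.05 and a lowest adjusted p of 0.417. Same-numbered arrays of the 2 genotypes correlated at 0.06, -0.47 and -0.31 in their deviations from the group mean. Over all combinations of arrays the values ran from -0.47 to 0.54. With 3 arrays per genotype they cannot tell whether the numbers pair the arrays. Of 2902 alternative values of 162 named genes, 2870 kept their sign and 32 had the opposite sign, and the cause was not tested. Sizes changed more than signs. With the deposited normalized values Prg2 went from 1.63 to 0.58, Blk from 1.69 to 0.58, Pira1 from 0.83 to 0.29, Ptpro from 1.01 to 0.45 and Dusp18 from -0.76 to -0.26, and without background correction they were 0.59, 0.59, 0.29, 0.45 and -0.26. Pik3r4 went from -0.56 to -0.03 with the mean of probes, while H2-Eb1 stayed at 0.82 to 0.98 throughout. List medians kept their sign for class II (0.69 to 0.96), general macrophage (0.30 to 0.44), immunoglobulin (0.53 to 1.84) and B cell genes (0.26 to 1.17).

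The values of opposite sign were, for Cpa3, 0.02 with the deposited normalized values, 0.00 with median scaling and 0.02 without background correction, for Hspa1b -0.12 with the mean of probes, and with array weights 0.00 for Fcer1a and 0.21 for Gata2. Without KitW/Wv array 3 and Cpa3Cre/+ array 2 together, an alternative added after seeing the data, they were 0.24 for Fcer1a, 0.55 for Gata2, -0.01 for Insl3, -0.09 for Adgre1, -0.04 for Igh-4, -0.02 for Adipoq and 0.03 for Retn. With 1 array left out in turn, the values ran from -0.06 to 0.05 for Cpa3, -0.35 to 0.00 for Cma1, -0.35 to 0.08 for Tpsb2, -0.43 to 0.12 for Fcer1a, -0.73 to 0.82 for Gata2, -0.36 to 0.07 for Alox15, -0.79 to 0.03 for Cpt1a, -0.58 to 0.04 for Eci3, -0.13 to 0.43 for Tyrp1, -0.09 to 0.42 for H2-Eb2, -0.01 to 0.29 for Adgre1, -0.02 to 0.03 for Ms4a1, -0.02 to 0.10 for Adipoq and -0.21 to 0.14 for Retn. Also added later was the HFD comparison without KitW/Wv HFD array 1, with 352 genes higher and 644 lower.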
